A study of Homo sapiens with 18 samples.

Results

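The mitochondrial ribosomal protein genes were followed across 18 RNA-seq libraries of ZR-75-1, a long-used human breast cancer line of the luminal type that expresses the estrogen receptor. The members were the protein-coding genes whose symbol is MRPL or MRPS followed by a number and an optional letter. They numbered 78 of the 60252 gene IDs in the deposited count files, 49 with an MRPL symbol and 29 with an MRPS symbol. A further 79 IDs of MRP pseudogenes were left out. Each of 6 groups held 3 libraries: ADAR knockdown cells given 100 nM triptolide, the DMSO vehicle or no treatment, and control cells (named SHC) given triptolide, DMSO or no treatment. All cells were exposed for 16 h in medium with 1% serum after growth in 10% serum, and every library was prepared from total RNA with a kit that keeps strand. Only 1 knockdown line is named, so that effects of the knockdown cannot be told apart from other differences between the 2 lines. The labels call the libraries biological replicates 1 to 3 without saying how the cultures were separated, and p-values measure the spread between these libraries.

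Mitochondria keep ribosomes of their own, which translate the few mRNAs of the mitochondrial genome into membrane subunits of the respiratory chain and the ATP synthase. Their RNA is transcribed inside the organelle, while every protein of the particle is encoded in the nucleus, made in the cytosol and imported. A part of these proteins descends from bacterial ribosomal proteins, and the others were added during the evolution of mitochondria. ADAR edits adenosine to inosine in double-stranded RNA, and triptolide blocks initiation by RNA polymerase II through the XPB subunit of TFIIH.

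By known place in the particle, 51 members belong to the large subunit and 26 to the small subunit. MRPS30 and MRPS18A carry small-subunit names and sit in the large subunit. MRPS36 was first named as a ribosomal protein and is now known as a subunit of the oxoglutarate dehydrogenase complex, and is in neither count. By the usual naming of positions in the particle, 46 members take the place of a bacterial ribosomal protein and 31 are listed as specific to mitochondria, among them MRPS18A and MRPS18B, although these resemble bacterial S18. No protein-coding member of the annotation was missing from the files, and 78 of 78 passed the low-count filter.

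Promoters are shown for a pair of head-to-head neighbours of which 1 was called lower with triptolide, and for 2 members with no head-to-head neighbour, 1 called lower (MRPS31) and 1 called higher (MRPS21). MRPL46 and MRPS11 are transcribed away from each other on chromosome 15, from annotated starts 63 bases apart in GENCODE on GRCh37. The windows run from 250 bases before to 50 bases after the start annotated by RefSeq on GRCh38.p14, and are written 5′ to 3′ in the direction of the gene. Capitals mark CCGGAAG, the core letters bound by ETS factors such as GABPA, and AAGATGGC, the core letters bound by YY1, on either strand. Positions are chr15:88467339-88467638 (minus strand) for MRPL46, chr15:88467458-88467757 (plus strand) for MRPS11, chr13:40771141-40771440 (minus strand) for MRPS31 and chr1:150293611-150293910 (plus strand) for MRPS21.
MRPL46: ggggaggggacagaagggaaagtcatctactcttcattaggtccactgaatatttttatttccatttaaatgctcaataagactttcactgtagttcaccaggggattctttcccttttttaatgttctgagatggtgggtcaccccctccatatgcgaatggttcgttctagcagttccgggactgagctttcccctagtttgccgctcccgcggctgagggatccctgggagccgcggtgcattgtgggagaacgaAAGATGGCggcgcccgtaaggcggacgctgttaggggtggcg
MRPS11: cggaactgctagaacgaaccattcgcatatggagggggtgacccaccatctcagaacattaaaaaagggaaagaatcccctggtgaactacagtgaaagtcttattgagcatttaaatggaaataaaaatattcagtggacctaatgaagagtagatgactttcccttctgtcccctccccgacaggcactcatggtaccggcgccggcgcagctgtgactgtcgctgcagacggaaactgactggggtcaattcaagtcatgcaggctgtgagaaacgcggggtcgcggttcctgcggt
MRPS31: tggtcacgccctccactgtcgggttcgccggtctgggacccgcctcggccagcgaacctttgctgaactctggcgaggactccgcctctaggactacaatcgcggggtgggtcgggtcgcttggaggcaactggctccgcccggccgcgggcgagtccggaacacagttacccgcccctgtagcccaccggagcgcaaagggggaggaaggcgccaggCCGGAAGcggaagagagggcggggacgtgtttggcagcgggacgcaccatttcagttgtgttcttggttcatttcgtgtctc
MRPS21: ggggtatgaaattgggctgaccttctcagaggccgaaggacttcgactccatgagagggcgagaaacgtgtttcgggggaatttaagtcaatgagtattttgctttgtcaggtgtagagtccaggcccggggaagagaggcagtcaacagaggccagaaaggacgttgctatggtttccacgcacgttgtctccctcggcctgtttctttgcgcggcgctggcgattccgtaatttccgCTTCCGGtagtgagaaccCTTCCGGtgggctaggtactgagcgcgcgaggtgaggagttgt

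The MRPL46 window held the YY1 letters just after the start, the MRPS31 window held 1 ETS match just before it, and the MRPS21 window held 2 on the opposite strand around it. The MRPS11 window, which shares part of its bases with that of MRPL46, held none of the searched letters. RefSeq places the MRPS11 start at 88467708 and that of MRPL46 at 88467388, farther apart than in GENCODE, so that a window from the GENCODE start of MRPS11 would hold other letters. Of the 69 members with a promoter in the RefSeq table, 29 (42.0%) held the ETS letters, against 14.2% of 15843 promoters of protein-coding genes. The YY1 letters stood in 20 members (29.0%), against 3.91% of those promoters. The NRF1 letters GCATGCGC stood in 6 members (8.7%), against 4.26%, and TATAAA, the TATA box letters, in 2 members (2.9%), against 9.63%. Each motif was searched on both strands, the ETS letters end in the AAG with which the YY1 letters begin, and a match is a description of the sequence and not of a bound factor.

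Levels per gene are given as counts per 1e6 counts (CPM) after TMM scaling, which sets the typical gene to no change between libraries. Divided by the annotated exon length in kb, the highest members in untreated cells were MRPL3, a large-subunit protein with a bacterial relative, at 67.0 ± 17.8 CPM per kb in knockdown cells and 74.7 ± 13.8 CPM per kb in control cells (SD, n = 3 each). MRPS18B followed at 64.1 ± 16.1 and 62.9 ± 12.8 CPM per kb in untreated knockdown and control cells, MRPS34 at 58.5 ± 10.6 and 58.5 ± 31.5, MRPL47 at 51.1 ± 14.3 and 55.9 ± 12.2, and MRPL49 at 49.5 ± 9.13 and 49.8 ± 10.4. The 5 lie within the spread of their neighbours in that order. The exon length merges the exons of all annotated transcripts of a gene, and can far exceed that of its canonical transcript. It was 2825 against 693 bases for MRPL21 and 4866 against 1550 bases for MRPS18C. The order per kb, at the high and the low end, therefore depends on this choice of length. MRPS18B is 1 of 3 human relatives of a single bacterial protein: MRPS18C stood at 1.03 ± 0.336 CPM per kb in untreated knockdown cells and 1.06 ± 0.148 CPM per kb in untreated control cells.

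The lowest members per kb were MRPS24, MRPL38, MRPL12, MRPS18C and MRPL53, from 0.123 ± 0.077 CPM per kb for MRPS24 to 1.66 ± 0.183 for MRPL53 in untreated control cells. Their counts in a single library ranged from 2 to 32 for MRPS24, from 17 to 81 for MRPL38, from 2 to 75 for MRPL12 and from 7 to 86 for MRPL53. In the annotation, 72.8% of the exon bases of MRPL53 lie in exons of CCDC142 on the same strand, 69.5% of those of MRPL12 and 41.1% of those of MRPL38 lie in another gene, and 23.2% of those of MRPS24 lie in its readthrough gene with URGCP. How the counting treated shared bases is not given in the sources used here, and these 4 levels are uncertain. Shared on the same strand are also 35.8% of the exon bases of MRPS28 and 21.1% of those of MRPL33. On the opposite strand, 50.9% of the exon bases of MRPS18A overlap RSPH9, 42.8% of those of MRPS22 overlap other genes, 40.2% of those of MRPS18C overlap ABRAXAS1, 39.1% of those of MRPS25 overlap NR2C2 and 38.1% of those of MRPL43 overlap SEMA4G and TWNK. Further members overlap less on the opposite strand, among them MRPS34, with 31.2% of its exon bases in EME2. Whether the counting used strand is not given in the sources used here, and reads of those partners cannot be told apart from the members' own.

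Over the series, the counts in genes of a library, in units of 1e6, lay between 26.7 and 35.7, and mitochondrial rRNA took 42.7 to 55.2% of counts in triptolide libraries, against 20.2 to 37.1% in DMSO and untreated libraries. ADAR stood at 109, 164 and 141 CPM in triptolide-treated knockdown cells, against 351, 467 and 319 CPM in triptolide-treated control cells. In untreated cells it stood at 351, 339 and 195 CPM in knockdown and at 475, 664 and 297 CPM in control libraries. The log2 difference of ADAR was -1.46 ± 0.34 with triptolide (edgeR adjusted p = 0.325, and 0.000192 with the replicate number as a block), where the groups did not overlap, -0.69 ± 0.33 with DMSO (1 and 0.144 with the block) and -0.70 ± 0.33 untreated (1 and 0.137 with the block). Of the 8 luminal markers, 8 reached 1 CPM in every group, and 3 of them (ESR1, GATA3 and FOXA1) were called lower and 0 higher with triptolide in each line. With the block 2 were called higher in knockdown and 3 in control cells and 5 lower in each line; KRT8 and CDH1 were higher in both. The summed level of the luminal markers was 3310 to 7290 CPM over all libraries, while the 5 basal markers summed to at most 8.5 CPM, the 5 leukocyte markers to 15.4 CPM, the 5 stromal markers to 33.5 CPM and the 3 endothelial markers to 5.16 CPM. The leukocyte sum was 8.4 to 15.4 CPM with triptolide and 3.95 to 6.61 CPM with DMSO in knockdown cells, and 7.39 to 14.2 CPM with triptolide and 4.26 to 7.34 CPM with DMSO in control cells. CD14 and ITGAM, markers of myeloid cells, were called higher with triptolide in both lines, as were TP63 of the basal list and COL3A1 of the stromal list, whose DCN and LUM were at or near 0. The part of these markers in the members' changes was not tested.

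Triptolide was compared with DMSO in each line to find the mRNAs that changed over 16 h. In knockdown cells 6 members were called higher and 8 lower of 78, where 16.7% of all 21285 tested genes were called higher and 18.9% lower. In control cells 4 members were called higher and 8 lower, where 14.9% of all tested genes were called higher and 16.0% lower. These are calls of edgeR's quasi-likelihood test at a Benjamini-Hochberg adjusted p under 0.05 over all tested genes. The members' share of calls, at 7.69% higher and 10.3% lower in knockdown and 5.13% higher and 10.3% lower in control cells, was below that of all tested genes in this fit. The median log2 change of the members was -0.05 in knockdown and -0.02 in control cells, against 0.04 and 0.03 for all tested genes. Their middle values were also less spread, from a lower quartile of -0.50 to an upper quartile of 0.29 in knockdown cells, against -0.72 to 0.74 for all tested genes.

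**Figure D1:**
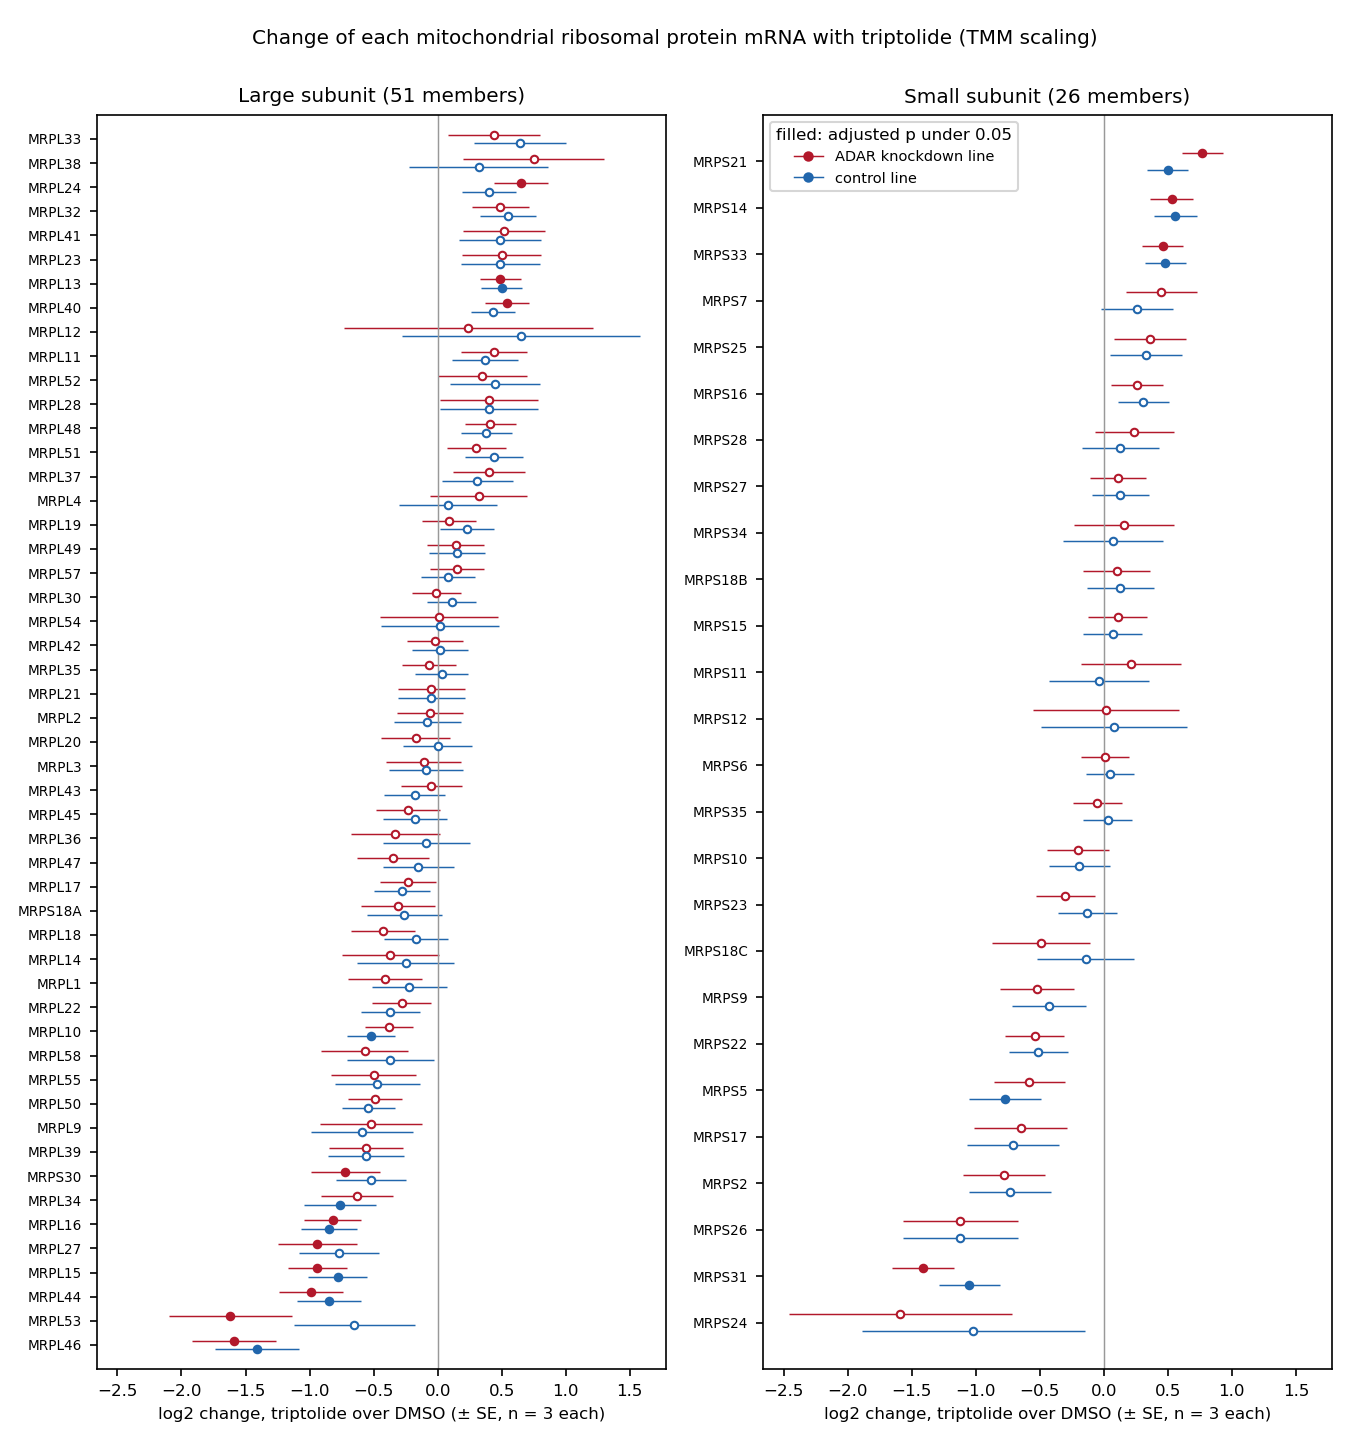
Log2 change (triptolide over DMSO, ± SE) of 77 members by subunit, in knockdown cells (red) and in control cells (blue), with filled points for an adjusted p under 0.05; MRPS36, in neither subunit, is not drawn. MRPL46 is the lowest large-subunit member called in both lines, at -1.59 in knockdown and -1.41 in control cells, and MRPS31 is the lowest small-subunit member called in both at -1.41 in knockdown and -1.05 in control cells.

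The plot of changes by subunit shows that a member moved alike in both lines: 72 of 78 had the same sign in both, and the changes correlated across members at Pearson r 0.943 (a description over 78 genes of the same libraries, which are not independent replicates). The calls shared by both lines were MRPL13, MRPS14, MRPS21 and MRPS33 on the higher side and MRPL15, MRPL16, MRPL44, MRPL46 and MRPS31 on the lower side. MRPL24 and MRPL40 were called higher and MRPL27, MRPL53 and MRPS30 lower in knockdown cells alone, and MRPL10, MRPL34 and MRPS5 lower in control cells alone. No member was called in opposite directions. With the replicate number as a block, 15 members were called higher and 26 lower in knockdown cells, where 29.1% and 28.1% of all tested genes were called. In control cells the block gave 16 higher and 19 lower, where it called 26.1% and 26.0% of all tested genes, and 13 higher and 19 lower members were shared by the lines. The members' share with the block was thus 33.3% lower in knockdown cells, above that of all tested genes, and below it at 19.2% higher in knockdown and 20.5% higher and 24.4% lower in control cells. The number called also depended on single libraries: it was 8 without knockdown DMSO replicate 1 and 9 without knockdown triptolide replicate 1. In control cells it was 4 without DMSO replicate 1 and 5 without DMSO replicate 2, DMSO replicate 3 or triptolide replicate 1.

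The sign of the higher calls depended on the scaling. Without TMM, on plain library totals, the median of all tested genes shifted by -0.71 in knockdown and -0.63 in control cells, and members called numbered 0 higher and 47 lower in knockdown and 0 higher and 37 lower in control cells. Without the low-count filter before TMM, 0 members were called higher in either line, and 10 and 11 were called lower in knockdown and control cells. Scaled to the summed mRNAs of the mitochondrial genome, 67 members in knockdown and 31 in control cells were called lower and 0 higher. "Higher" and "lower" below are therefore relative to the typical gene. Across members, the changes on library totals and on TMM had a Spearman rho of 0.999 in each line. Rescaling multiplies all genes of a library by the same factor and so shifts all changes nearly alike. This rho was therefore largely fixed beforehand and does not test the order of the members. Relative to the median of the genes tested in the same fit, the members' median on library totals was -0.09 in knockdown and -0.06 in control cells. It was -0.1 and -0.05 with TMM, -0.3 and -0.22 without the filter, and -0.14 and -0.17 scaled to mitochondrial mRNAs. The share of all tested genes called on these other scales is not given here, so their counts are not read as a trait of the members. In bulk RNA, fewer cells and less RNA per cell cannot be told apart.

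MRPL46, a large-subunit protein specific to mitochondria (ENSG00000259494.1_2, chromosome 15, 89002708 to 89010621 of GRCh37, minus strand), fell the most among members called in both lines. It stood at 2.38, 2.43 and 5.32 CPM in knockdown cells with triptolide, against 10.7, 8.25 and 11.7 CPM with DMSO. In control cells it stood at 3, 3.96 and 5.06 CPM with triptolide, against 10.2, 9.22 and 12.6 CPM with DMSO. Every triptolide library was below every DMSO library of its line. The log2 change was -1.59 ± 0.33 (SE, n = 3 each, edgeR adjusted p = 0.00123) in knockdown cells and -1.41 ± 0.33 (edgeR adjusted p = 0.00329) in control cells, and the call held in both lines without any 1 library.

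MRPS11, its head-to-head neighbour and a small-subunit protein with a bacterial relative (ENSG00000181991.15_1, chromosome 15, 89010684 to 89024007, plus strand), was not called. It stood at 20.1, 33.6 and 51.1 CPM in knockdown cells with triptolide, against 18.4, 29.1 and 43 CPM with DMSO. In control cells it stood at 20.6, 25.5 and 46.3 CPM with triptolide, against 25.2, 28.9 and 40.8 CPM with DMSO. The groups overlapped in both lines, and the libraries followed their replicate number more than the treatment. The log2 change was 0.21 ± 0.39 (edgeR adjusted p = 0.696) in knockdown and -0.04 ± 0.39 (edgeR adjusted p = 0.955) in control cells, and the difference between the neighbours was not tested.

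**Figure D2:**
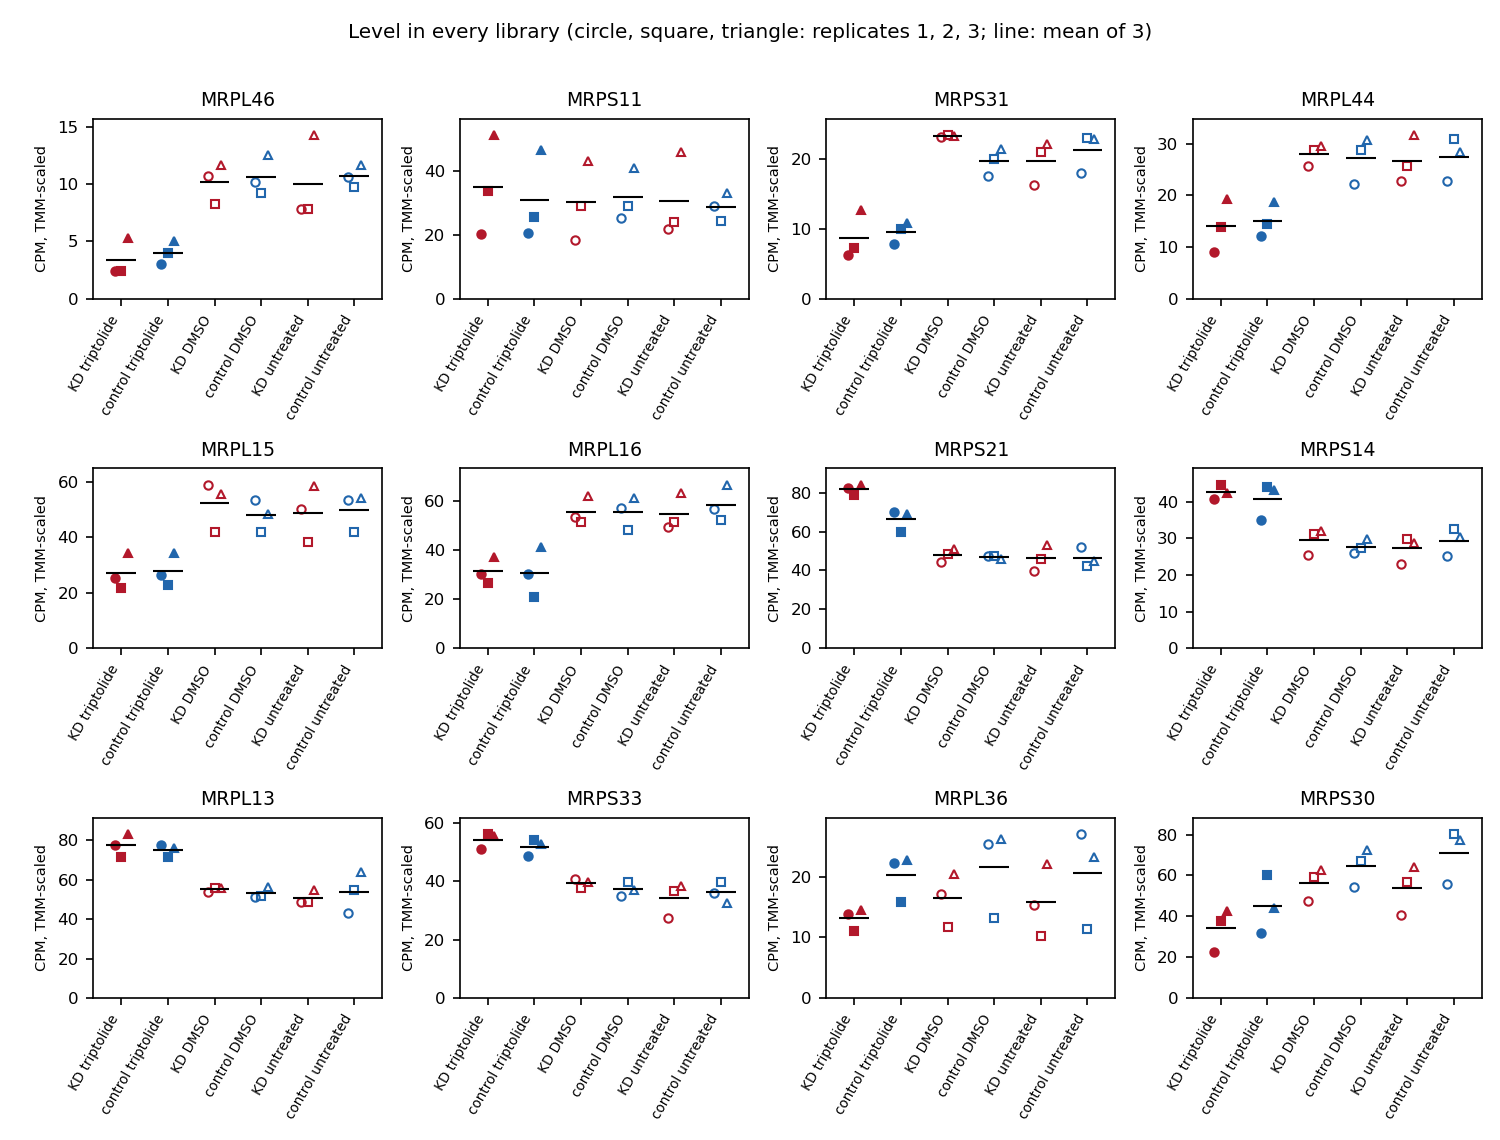
Level in every library (CPM, TMM-scaled) of 12 members in the 6 groups, with red for knockdown cells, blue for control cells, filled symbols for triptolide, the symbol shape for the replicate number and a line for the mean of 3. The MRPL46 and MRPS31 levels with triptolide lie below all others, those of MRPS21 with triptolide above all others, and the MRPS11 levels overlap in all 6 groups.

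MRPS31, a small-subunit protein specific to mitochondria (ENSG00000102738.7_1, chromosome 13, 41303264 to 41345326, minus strand), had 6.21, 7.29 and 12.7 CPM in knockdown cells with triptolide, against 23.2, 23.5 and 23.3 CPM with DMSO. In control cells it had 7.83, 10 and 10.8 CPM with triptolide, against 17.6, 20.1 and 21.5 CPM with DMSO. The groups did not overlap in either line, and knockdown replicate 3 kept the highest level with triptolide. The change was -1.41 ± 0.24 on the log2 scale in knockdown cells (edgeR adjusted p = 0.000304) and -1.05 ± 0.24 in control cells (edgeR adjusted p = 0.0033).

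The other 3 falls shared by the lines were in the large subunit. MRPL44, which has a fold of the ribonuclease III family and sits at the exit of the peptide tunnel, had 9, 13.9 and 19.3 CPM in knockdown cells with triptolide, against 25.8, 28.9 and 29.6 CPM with DMSO. MRPL44 changed by -0.99 ± 0.25 on the log2 scale in knockdown and -0.85 ± 0.25 in control cells. MRPL15 had 25.5, 21.9 and 34.2 CPM in knockdown cells with triptolide, against 59, 42 and 55.7 CPM with DMSO, a log2 change of -0.94 ± 0.23, and changed by -0.78 ± 0.23 in control cells. MRPL16, a protein near the catalytic centre, had 30.5, 26.8 and 37.4 CPM in knockdown cells with triptolide, against 53.6, 51.7 and 62.2 CPM with DMSO. Its log2 changes were -0.82 ± 0.22 in knockdown and -0.85 ± 0.22 in control cells, and its groups did not overlap in either line. In control cells MRPL44 lost its call without triptolide replicate 1, DMSO replicate 2 or DMSO replicate 3 (edgeR adjusted p = 0.0538 to 0.0784), and MRPL15 without DMSO replicate 1 or triptolide replicates 1 or 2 (edgeR adjusted p = 0.0506 to 0.0595).

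Some negative changes of similar size missed the test without the block in at least 1 line, and passed it with the block. MRPS26 had 12.1, 7.43 and 16.1 CPM in knockdown cells with triptolide, against 26.9, 17.4 and 33.2 CPM with DMSO, and 12.7, 6.48 and 16.9 CPM in control cells with triptolide, against 33.2, 16.4 and 28.8 CPM with DMSO. Each library with triptolide was below the DMSO library of its own number, and the log2 change was -1.12 ± 0.45 in each line (edgeR adjusted p = 0.0599 in knockdown and 0.0655 in control cells). With the replicate block the adjusted p was 0.000177 in knockdown and 0.000192 in control cells. MRPL27, a bacterial relative in the large subunit, changed by -0.94 ± 0.31 in knockdown cells (edgeR adjusted p = 0.0263) and -0.77 ± 0.31 in control cells (edgeR adjusted p = 0.0719, and 0.000161 with the block). Its knockdown call was lost without DMSO replicate 1, triptolide replicate 2 or triptolide replicate 3, at adjusted p = 0.108, 0.113 and 0.0694 by edgeR.

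MRPL53, called lower in knockdown cells alone, had 0.585, 0.56 and 0.25 CPM with triptolide, against 2.07, 0.828 and 1.36 CPM with DMSO, and a log2 change of -1.62 ± 0.48 (edgeR adjusted p = 0.0139). The call was lost without DMSO replicate 1 or triptolide replicate 3 (edgeR adjusted p = 0.0712 and 0.0631), and the log2 change in control cells was -0.65 ± 0.47 (edgeR adjusted p = 0.314). MRPS24, at 0.18, 0.0934 and 0.179 CPM in knockdown cells with triptolide against 0.769, 0.0552 and 0.567 CPM with DMSO, was not called (log2 change -1.59 ± 0.87, edgeR adjusted p = 0.166). Both rest on few counts and on exons shared with another gene.

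On the higher side, MRPS21 (ENSG00000266472.5_1, chromosome 1, 150266281 to 150281414, plus strand), a small-subunit protein with a bacterial relative, stood at 82.6, 79 and 84.1 CPM in knockdown cells with triptolide, against 44.4, 48.6 and 51.2 CPM with DMSO. In control cells it stood at 70.3, 60 and 69 CPM with triptolide, against 47.5, 47.2 and 45.8 CPM with DMSO. Every triptolide library was above every DMSO library of its line. The log2 change was 0.77 ± 0.16 in knockdown cells (edgeR adjusted p = 0.00116) and 0.50 ± 0.16 in control cells (edgeR adjusted p = 0.0213); on library totals the changes were 0.06 in knockdown and -0.12 in control cells. The call in control cells was lost when any 1 of its 6 libraries other than triptolide replicate 2 was left out (edgeR adjusted p = 0.0555 to 0.0819).

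MRPS14, which lies near the decoding site, stood at 40.8, 44.6 and 42.3 CPM in knockdown cells with triptolide, against 25.4, 31.1 and 31.9 CPM with DMSO, a log2 change of 0.53 ± 0.17. MRPL13 stood at 77.5, 71.6 and 83.1 CPM in knockdown cells with triptolide, against 54, 55.9 and 55.9 CPM with DMSO, a log2 change of 0.49 ± 0.16. MRPS33, specific to mitochondria, stood at 51.2, 56.1 and 55.6 CPM in knockdown cells with triptolide, against 40.9, 37.7 and 39.9 CPM with DMSO, a log2 change of 0.46 ± 0.16. None of the 3 overlapped between treatments in either line, and in control cells they changed by 0.56 ± 0.17, 0.50 ± 0.16 and 0.48 ± 0.16 in the same order. On library totals MRPS14 turned to -0.18 in knockdown and -0.09 in control cells, MRPL13 to -0.23 in knockdown and -0.12 in control cells, and MRPS33 to -0.25 in knockdown and -0.15 in control cells. Of the 6 omissions of a single library in each line, 4 ended the call of MRPS14, 5 that of MRPL13 and 6 that of MRPS33, with an edgeR adjusted p of at most 0.12 for MRPS14, 0.0908 for MRPL13 and 0.124 for MRPS33. MRPL24, called higher in knockdown cells alone (0.65 ± 0.21, edgeR adjusted p = 0.0255), was at 0.40 ± 0.21 in control cells (edgeR adjusted p = 0.171, and 0.0168 with the block), and turned to -0.08 in knockdown and -0.23 in control cells on library totals. Its call was lost without DMSO replicate 1, triptolide replicate 1, DMSO replicate 2 or triptolide replicate 3 (edgeR adjusted p = 0.0616, 0.0779, 0.111 and 0.112).

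MRPL33, MRPL38, MRPL32 and MRPL41, of the large subunit, had mean log2 changes of similar size and were called in neither line without the block. MRPL33 was at 0.44 ± 0.36 in knockdown and 0.64 ± 0.36 in control cells, with edgeR adjusted p = 0.016 and 0.00334 only with the block. MRPL32 was at 0.49 ± 0.22 and 0.55 ± 0.22, with adjusted p = 0.00781 and 0.00353 only with the block. MRPL38 was at 0.75 ± 0.55 and 0.32 ± 0.54, and MRPL41 at 0.52 ± 0.32 and 0.49 ± 0.32, in knockdown and control cells, and neither was called with the block. Of the members called in 1 line, MRPL24, MRPL40, MRPL10, MRPL27, MRPL34, MRPS5 and MRPS30 were called in both with the block. MRPL53 was still called in knockdown cells alone. MRPS30 changed by -0.72 ± 0.27 in knockdown cells (edgeR adjusted p = 0.044) and was at -0.52 ± 0.27 in control cells (edgeR adjusted p = 0.158, and 0.00271 with the block).

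Members with a special role were called in few cases without the block. MRPL10, the base of the stalk that recruits translation factors, changed by -0.38 ± 0.19 in knockdown cells and -0.52 ± 0.19 in control cells (edgeR adjusted p = 0.125 and 0.0444, and 0.0324 and 0.00577 with the block). MRPL11, at the base of the same stalk, was at 0.44 ± 0.26 and 0.37 ± 0.26 in knockdown and control cells (edgeR adjusted p = 0.194 and 0.306, and 0.00948 and 0.0466 with the block). The low-count stalk protein MRPL12 was at 0.24 ± 0.97 and 0.65 ± 0.93. MRPS12, at the decoding centre, was at 0.02 ± 0.57 in knockdown and 0.08 ± 0.57 in control cells. MRPL58, a peptidyl-tRNA hydrolase that became part of the large subunit, was at -0.57 ± 0.34 in knockdown and -0.37 ± 0.34 in control cells (edgeR adjusted p = 0.196 and 0.443, and 0.00582 and 0.0564 with the block). The 3 relatives of bacterial S18 were not called: MRPS18A was at -0.31 ± 0.29 in knockdown and -0.26 ± 0.29 in control cells, MRPS18B at 0.10 ± 0.26 and 0.13 ± 0.26, and MRPS18C at -0.49 ± 0.38 and -0.14 ± 0.38.

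By subunit, 3 of 51 large-subunit members were called higher and 7 lower in knockdown cells, and 1 higher and 6 lower in control cells. Among all tested genes 16.7% were called higher and 18.9% lower in knockdown cells, and 14.9% and 16.0% in control cells. Of 26 small-subunit members, 3 were called higher and 1 lower in knockdown cells, and 3 higher and 2 lower in control cells. With the block, 10 large-subunit members were called higher and 18 lower in knockdown and 11 and 12 in control cells. Of the small-subunit members, 5 were called higher and 8 lower in knockdown and 5 and 7 in control cells. Of all tested genes the block called 29.1% higher and 28.1% lower in knockdown cells, and 26.1% and 26.0% in control cells. The median log2 changes were -0.07 and -0.08 in the large subunit, in knockdown and control cells, and 0.01 and 0.04 in the small subunit. Members in the place of a bacterial protein had medians of -0.09 and -0.07, and those listed as specific to mitochondria -0.02 and 0.02. These group medians differ by far less than the members within a group.

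The summed level of the members was 3360 ± 628 CPM in knockdown cells with triptolide, against 3350 ± 383 CPM with DMSO, and 3290 ± 635 CPM in control cells with triptolide, against 3270 ± 308 CPM with DMSO (SD, n = 3 each). As a share of all counts in genes, the members took 0.255 ± 0.0539% in knockdown cells with triptolide, against 0.417 ± 0.0663% with DMSO. In control cells they took 0.245 ± 0.0546% with triptolide, against 0.377 ± 0.0654% with DMSO. The share of counts in mitochondrial rRNA, given above, was higher in every triptolide library than in any other, and its part in the lower share of the members was not tested.

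The genes that work with the mitochondrial ribosome were taken from lists, which were chosen with earlier results of these data known. Genes named from the lists were picked by their calls and values, and are not a sample of their list. Of 26 genes of ribosome assembly and rRNA modification, 1 was called higher and 10 lower in each line, with a median log2 change of -0.58 in knockdown and -0.47 in control cells, where 18.9% and 16.0% of all tested genes were called lower. With the block, 3 were higher and 18 lower in knockdown and 3 and 16 in control cells. Of all tested genes the block called 29.1% higher and 28.1% lower in knockdown cells, and 26.1% and 26.0% in control cells. On library totals 0 genes of the list were higher, and 23 and 21 were lower in knockdown and control cells. On that scale the median of all tested genes itself shifted by -0.71 and -0.63, and the share of them called is not given here. RPUSD4, a pseudouridine synthase of the mitochondrial rRNA, changed by -2.33 ± 0.21 in knockdown and -2.27 ± 0.21 in control cells, and FASTKD2, which binds that rRNA, by -1.77 ± 0.27 and -1.54 ± 0.27. MTERF4 and NSUN4, partners in assembly of the large subunit, changed by -1.28 ± 0.21 and -1.05 ± 0.19 in knockdown cells and by -1.61 ± 0.21 and -1.13 ± 0.19 in control cells. NGRN, also needed for that rRNA, was called higher by 0.80 ± 0.22 and 0.70 ± 0.22 in knockdown and control cells, and was at 0.08 and 0.05 on library totals. Each of these 5 genes passed edgeR's adjusted threshold in both lines.

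**Figure D3:**
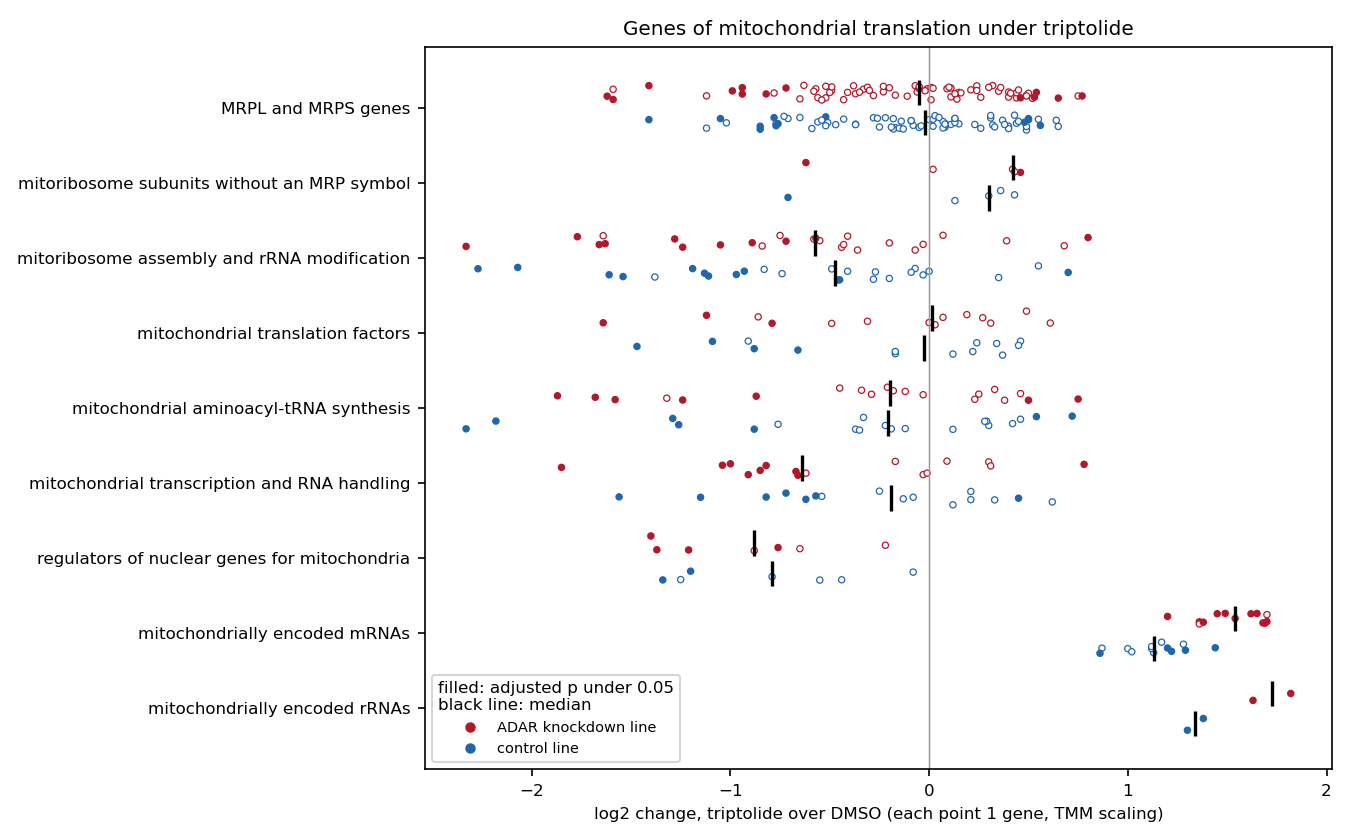
Log2 change (triptolide over DMSO) of each tested gene in the members and in 8 lists of genes of mitochondrial translation, for knockdown cells (red, upper row) and control cells (blue, lower row), with filled points for an adjusted p under 0.05 and a black line at the median. The members are spread around 0, the assembly list has a median of -0.58 in knockdown and -0.47 in control cells, and all mitochondrially encoded RNAs lie above 0.

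Of 20 genes that charge mitochondrial tRNAs, 2 were called higher and 5 lower in each line. Among all tested genes 16.7% were called higher and 18.9% lower in knockdown cells, and 14.9% and 16.0% in control cells. YARS2, for tyrosine, changed by -1.87 ± 0.24 in knockdown and -2.18 ± 0.24 in control cells, and CARS2, for cysteine, by 0.75 ± 0.17 and 0.72 ± 0.17 (0.03 and 0.11 on library totals). Of 14 translation factors, 3 were called lower in knockdown and 4 in control cells and 0 higher, among them the initiation factor MTIF2 at -1.12 ± 0.28 and -0.88 ± 0.28 and the translational activator TACO1 at -1.64 ± 0.34 and -1.47 ± 0.34. Of 16 genes of mitochondrial transcription and RNA handling, 1 was called higher and 8 lower in knockdown cells, and 1 higher and 6 lower in control cells. The poly(A) polymerase MTPAP changed by -1.85 ± 0.25 and -1.56 ± 0.25 in knockdown and control cells. On library totals no gene of these 3 lists was called higher in either line. Those called lower in knockdown and control cells numbered 14 and 12 for tRNA charging and 9 and 7 for translation factors. For transcription and RNA handling they numbered 13 and 8. The share of all tested genes called on that scale is not given here, so these counts are not read as a trait of the lists. Of the 5 ribosome subunits without an MRP symbol, PTCD3 was called lower in both lines (-0.62 ± 0.20 and -0.71 ± 0.21) and DAP3 higher in knockdown cells alone (0.46 ± 0.16, against 0.36 ± 0.16 in control cells, not called; -0.25 in knockdown cells on library totals).

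Of 8 regulators of nuclear genes for mitochondria, 7 were tested, with 4 called lower in knockdown cells, 2 in control cells and 0 higher. GABPA, the ETS factor whose letters were searched in the promoters, changed by -1.21 ± 0.34 in knockdown and -1.20 ± 0.34 in control cells, and NRF1 by -1.37 ± 0.28 and -1.34 ± 0.28. YY1 was at -0.22 ± 0.22 and -0.08 ± 0.22 and was not called. On library totals 7 regulators were called lower in knockdown and 5 in control cells, a scale on which the share of all tested genes called is not given here. Of the 13 mRNAs of the mitochondrial genome, which are what these ribosomes translate, 11 were called higher in knockdown and 5 in control cells and 0 lower, with median changes of 1.54 and 1.13, and both mitochondrial rRNAs were called higher in both lines. On library totals the medians of these mRNAs were 0.82 in knockdown and 0.50 in control cells, and 1 and 0 of them were called higher. The 13 mRNAs took 1.35 ± 0.315% of counts in knockdown cells with triptolide, against 0.805 ± 0.0775% with DMSO, and 1.45 ± 0.703% in control cells with triptolide, against 1.14 ± 0.207% with DMSO.

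The knockdown was compared with control in each treatment. No member was called in any treatment by edgeR without or with the block or by DESeq2. In the edgeR fit without the block, 0 members had an unadjusted p under 0.05. Without the block, 0.0188% of all tested genes were called higher and 0.047% lower with triptolide, 0.0376% and 0.0564% with DMSO, and 0.0282% and 0.0705% untreated. With the block these shares were 0.385% and 0.258%, 0.357% and 0.249%, and 0.301% and 0.277% in the same order. The members' log2 differences had medians of 0.01 with triptolide, 0.04 with DMSO and -0.04 untreated, against -0.04, -0.01 and -0.02 for all tested genes. Within 0.2 of 0 lay 66 of 78 members with triptolide, 66 with DMSO and 73 untreated, while the SE of a member's difference was 0.27 at the median and 0.16 at the least. Differences of that size were not detectable at this spread.

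**Figure D4:**
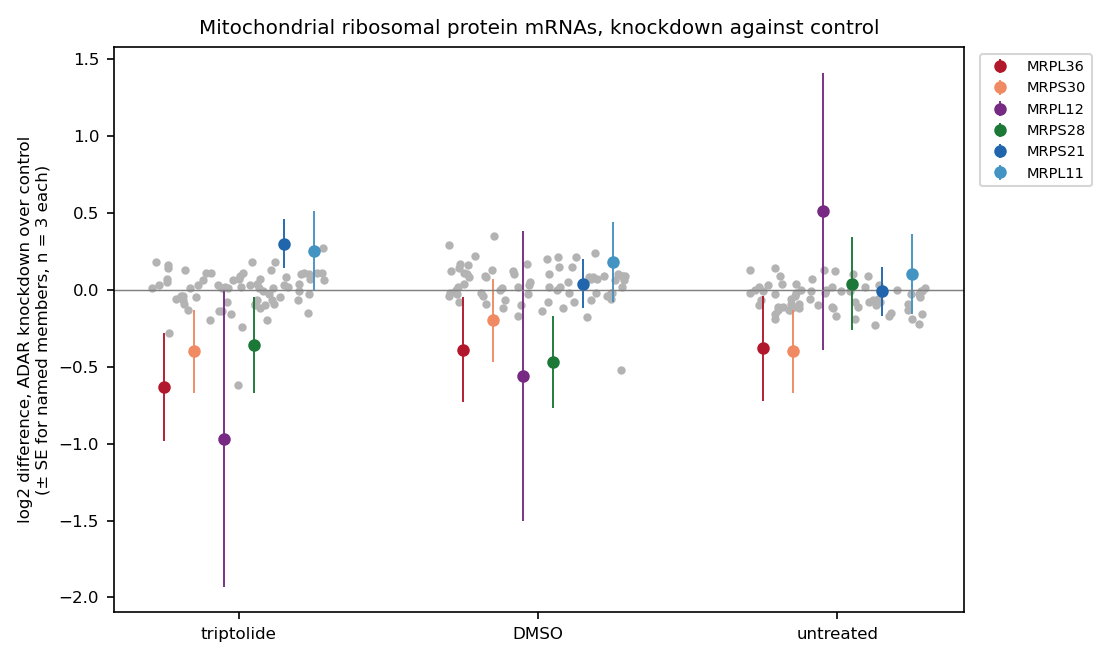
Log2 difference of each of the 78 members (knockdown over control) with triptolide, with DMSO and untreated, in grey, with 6 named members in colour with their SE (n = 3 each). Most members lie within 0.2 of 0, MRPL36 and MRPS30 lie below 0 in all 3 treatments, and the low-count member MRPL12 has the widest error of the 6.

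MRPL36 (ENSG00000171421.12_2, chromosome 5, 1798499 to 1801480, minus strand), a large-subunit protein with a bacterial relative, had the lowest mean difference. It stood at 13.8, 11.1 and 14.5 CPM in knockdown cells with triptolide, against 22.3, 15.9 and 22.7 CPM in control cells with triptolide. With DMSO it stood at 17.2, 11.7 and 20.4 CPM in knockdown cells, against 25.4, 13.2 and 26.2 CPM in control cells, and untreated at 15.3, 10.2 and 22.1 CPM in knockdown cells, against 27, 11.4 and 23.3 CPM in control cells. The knockdown library was below the control library of its number in 9 of 9 pairs, and the groups did not overlap with triptolide. The log2 differences were -0.63 ± 0.35, -0.39 ± 0.34 and -0.38 ± 0.34 with triptolide, with DMSO and untreated, each at an edgeR adjusted p of 1, and with the block the adjusted p was 0.137, 0.628 and 0.668.

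MRPS30 (ENSG00000112996.10_2, chromosome 5, 44809049 to 44820530, plus strand) was the other of 2 members lower in the knockdown library of 9 of 9 pairs. It stood at 22.4, 37.5 and 42.7 CPM in knockdown cells with triptolide, against 31.6, 60 and 44 CPM in control cells with triptolide. Untreated it stood at 40.7, 56.9 and 64.1 CPM in knockdown cells, against 55.9, 80.2 and 77.2 CPM in control cells, and the groups overlapped. The log2 differences were -0.40 ± 0.27, -0.20 ± 0.27 and -0.40 ± 0.27 with triptolide, with DMSO and untreated, and none was called. Both genes lie on the short arm of chromosome 5. The 3 members of its long arm were nearer to 0: MRPL22 at 0.02, -0.07 and -0.11, MRPS27 at 0.07, 0.09 and 0.01, and MRPS36 at 0.18, 0.13 and 0.02 in the same order of treatments. MRPL36 and MRPS30 were named for their low differences, and a part of the chromosome arm in these was not tested. Genes lower in 9 of 9 pairs were not counted over all tested genes.

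The other 2 of the 4 lowest mean differences were those of MRPL12 and MRPS28, and neither kept a sign. MRPL12 was at -0.97 ± 0.96, -0.56 ± 0.94 and 0.51 ± 0.90 with triptolide, with DMSO and untreated, and MRPS28, which shares exon bases with another gene, at -0.36 ± 0.31, -0.47 ± 0.30 and 0.04 ± 0.30. On the higher side, MRPS21 was at 0.30 ± 0.16 with triptolide, where its knockdown libraries (82.6, 79 and 84.1 CPM) lay above all control libraries (70.3, 60 and 69 CPM), and at 0.04 ± 0.16 with DMSO and -0.01 ± 0.16 untreated. MRPL11 was at 0.25 ± 0.26, 0.18 ± 0.26 and 0.10 ± 0.26, MRPS36 at 0.18 ± 0.18, 0.13 ± 0.18 and 0.02 ± 0.18, and MRPL30 at 0.11 ± 0.19, 0.22 ± 0.19 and -0.01 ± 0.19. The same 3 knockdown triptolide and 3 control triptolide libraries enter these differences and the triptolide changes above.

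The test of whether triptolide changed a member by a different amount in the 2 lines called 0 members and 0.0% of all tested genes. With the block it called 0 members and 0.0047% of all tested genes. In the edgeR fit without the block, 0 members had an unadjusted p under 0.05 for this difference. The 2 lowest values were -0.97 ± 0.67 for MRPL53 and -0.57 ± 1.25 for MRPS24, and the 2 highest 0.43 ± 0.77 for MRPL38 and 0.26 ± 0.22 for MRPS21 (knockdown minus control, log2). Calls in 1 line alone, such as those of MRPL24 and MRPS5, are therefore not shown to differ between lines. DMSO against untreated called 0 members and 0.0% of all tested genes in each line without and with the block, and DESeq2 called 0 members. The median log2 change of the members with DMSO was 0.07 in knockdown and -0.01 in control cells, against -0.01 and -0.02 for all tested genes. MRPL10 was at -0.19 ± 0.19 in knockdown cells, with no overlap between 37.4, 40.8 and 42.8 CPM with DMSO and 45.5, 49 and 43 CPM untreated, and at -0.01 ± 0.19 in control cells. MRPL12 was at -1.35 ± 0.93 in knockdown and -0.28 ± 0.92 in control cells, MRPS24 at 0.39 ± 0.78 and 0.23 ± 0.79, and MRPL52 at 0.24 ± 0.35 and 0.11 ± 0.35, all within 2 SE of 0.

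The libraries of a replicate number deviated together. For each member the mean deviation from the group means was taken over the 6 libraries of a number. The range of these means over the 3 numbers was 0.57 at the median on the log2 scale, above 1 in 5 members, and larger than the absolute mean triptolide change in 54 of 78. MRPS12 averaged 30.1 CPM over the 6 libraries of replicate 1, 9.96 CPM in replicate 2 and 19.3 CPM in replicate 3, in every treatment and line in that order of size. MRPL54 averaged 14.6, 6.36 and 7.95 CPM, MRPS34 88.2, 44.5 and 73.0 CPM, and MRPL28 87.6, 43.5 and 68.0 CPM in replicates 1, 2 and 3. MRPL9 had another pattern, at 22.4, 27.9 and 42.4 CPM.

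**Figure D5:**
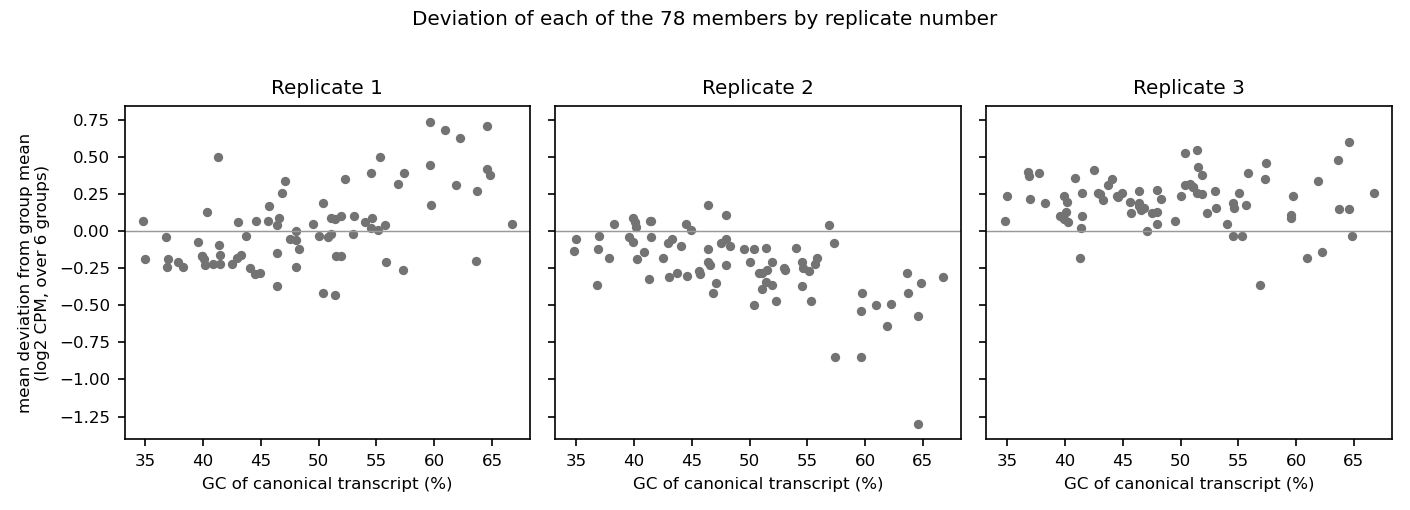
Mean deviation of each of the 78 members from its group means (log2 CPM, over 6 groups) for replicate numbers 1, 2 and 3, against the GC content of its canonical transcript in percent. Members rich in GC tend to lie above 0 in replicate 1 and below 0 in replicate 2, and no such trend is visible in replicate 3.

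These patterns ran with base composition: across the 78 members, the GC content of the canonical transcript had a Spearman rho of 0.528 with the deviation in replicate 1, -0.604 in replicate 2 and -0.0156 in replicate 3. The GC content ranged from 34.8 to 66.7% with a median of 48.1%. With the mean triptolide change the GC content had a rho of 0.0507 and the transcript length a rho of 0.000266. The deviations of a member cancel over the replicate numbers, so that their correlations with GC are not independent of each other. All these correlations are descriptions over 78 genes of the same 18 libraries, and the part of GC in the deviations was not tested.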

How the data were processed

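RNA-seq of 18 libraries was analysed, 3 in each of 6 groups taken from the labels. The deposited values are raw read counts per gene, which the authors made with STAR 2.4.2a on hg19 and HTSeq 0.6.1, per the submitters' processing notes, which also name DESeq2 1.4.5 and R 3.1. The strand setting is not given in the sources used here. Each file ends in 5 tallies of unassigned reads (24.9 to 35.4% of its total), which entered neither library sizes nor tests, and 58821 of 60252 gene IDs (97.6%) were matched to GENCODE release 44 lifted to GRCh37.

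Counts were fitted with edgeR 4.0.16 in R 4.3.3 (TMM, filterByExpr by group, 6 group means, quasi-likelihood test, 12 residual degrees of freedom), with Benjamini-Hochberg adjustment over 21285 genes and a threshold of 0.05. DESeq2 1.42.0, a block for the replicate number (which leaves 10 residual degrees of freedom), no low-count filter, library totals, scaling to mitochondrial mRNAs, fits of only the libraries compared and omission of each library were the alternatives. The fit was also run on simulated counts, drawn without a deviation shared by the libraries of a replicate number. That run is therefore not used as support for the calls with or without the block. Libraries of 1 group were distinct (lowest chi-square per degree of freedom 53.4). The replicate numbers come from the labels, and all 45 pairs of libraries with the same number correlated in their deviations from the group means (r 0.307 to 0.688), so the numbers were taken to pair the libraries. For 90 pairs with different numbers r was -0.519 to 3.77e-05. Deviations from a group mean cancel within the group, which by itself pulls these values below those of the same number once libraries of a number go together. Counts limit the precision of the low members, and the tests cover the spread between libraries.

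The members and gene lists were chosen with earlier results of these data known. Members named with values were the 8 largest and 8 smallest mean triptolide changes, the 4 largest and 4 smallest mean knockdown differences, the 2 largest and 2 smallest interactions and DMSO changes, the 5 highest and 5 lowest levels per kb, and members with a known special role; other called members were named after their values were seen. Of the related lists, genes called in both triptolide comparisons were eligible, at most 4 a list by smallest p; YY1, DAP3, NGRN and CARS2, and the replicate examples MRPL54, MRPS34, MRPL28 and MRPL9, were added after their values were seen. Promoters came from RefSeq, with 69 of 78 members matched.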

Additional observations from a re-analysis of the deposited data

Results flagged for a closer look

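Of the 78 members, 3 were lower in knockdown than in control cells in all 3 untreated pairs of same-numbered libraries and higher in all 3 DMSO pairs. The reverse was seen in 0 members. The triptolide pairs were not part of this count. MRPL47 was at -0.13 on the log2 scale in untreated cells and at 0.09 with DMSO. MRPL19 was at -0.23 in untreated cells and at 0.16 with DMSO. MRPS31 was at -0.11 in untreated cells and at 0.24 with DMSO. The differences between treatments were not tested, and none of these values was called by edgeR. Of the 78 members, 11 were lower in all 3 untreated pairs and 23 were higher in all 3 DMSO pairs. An overlap of 3 members is thus not shown to be more than coincidence, and the same count over all tested genes was not made.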

How the results depend on the processing

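With the replicate block, members called with triptolide numbered 41 in knockdown and 35 in control cells, against 14 and 12 without it, and the median knockdown difference with triptolide was 0.02, against 0.01; no knockdown, interaction or DMSO call changed. That median was also 0.02 by DESeq2, 0.06 without the low-count filter, 0.04 on library totals and 0.05 with only the libraries compared, which called 5 members in control cells with triptolide. Without the filter the median triptolide change in control cells was -0.15.

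On library totals, triptolide calls numbered 47 in knockdown and 37 in control cells, with medians of -0.76 and -0.65, and the median was 0.14 for knockdown against control with DMSO and 0.24 for DMSO against untreated in knockdown cells. These triptolide changes reversed, in knockdown and control cells: MRPS14 to -0.18 and -0.09, MRPL38 to -0.01 and -0.31, MRPL24 to -0.08 and -0.23, MRPL32 to -0.22 and -0.10, MRPL41 to -0.19 and -0.15, MRPL13 to -0.23 and -0.12, MRPL33 to -0.32 in knockdown cells and MRPS21 to -0.12 in control cells. MRPS36 turned to -0.01 for knockdown against control untreated, and MRPL10 to 0.01 for DMSO against untreated in control cells.

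Scaled to mitochondrial mRNAs, triptolide calls numbered 67 and 31 with medians of -1.51 and -0.96. The median was 0.61 for knockdown against control with DMSO, -0.59 for the interaction, and 0.67 and -0.20 for DMSO against untreated in knockdown and control cells. Triptolide changes reversed to -0.65 and -0.33 for MRPS21, -0.87 and -0.24 for MRPS14, -0.98 and -0.23 for MRPL33, -0.65 and -0.44 for MRPL38, -0.82 and -0.51 for MRPL24, -0.92 and -0.24 for MRPL32, -0.92 and -0.35 for MRPL41, and -0.94 and -0.30 for MRPL13. For knockdown against control, MRPL11 turned to -0.06, MRPS36 to -0.15 and MRPS28 to -0.12 untreated, and MRPL36 to 0.19, MRPS30 to 0.42 and MRPS28 to 0.13 with DMSO. The interaction turned to -0.21 for MRPL38 and -0.32 for MRPS21, and MRPL10 to 0.35 for DMSO against untreated in knockdown cells. Apart from the change of scale or of libraries itself, the cause was not tested. The share of all tested genes called on library totals or on mitochondrial mRNAs is not given here.

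With 1 library left out, triptolide calls ranged from 8 to 16 in knockdown and 4 to 13 in control cells. Median triptolide changes ranged from -0.29 to 0.02 in knockdown and -0.22 to 0.07 in control cells, median knockdown differences from -0.14 to 0.17 with triptolide, -0.04 to 0.12 with DMSO and -0.19 to 0.05 untreated, the median interaction from -0.15 to 0.11, and the median DMSO change from -0.01 to 0.23 and -0.11 to 0.05 in knockdown and control cells. Signs turned within these ranges: MRPL38 with triptolide in control cells -0.15 to 0.59; for knockdown against control untreated MRPL11 -0.09 to 0.22, MRPS21 -0.12 to 0.09, MRPS36 -0.06 to 0.08, MRPL30 -0.12 to 0.15, MRPL12 -0.24 to 2.07 and MRPS28 -0.20 to 0.25; MRPS21 with DMSO -0.01 to 0.09. For the interaction they were MRPL38 -0.15 to 0.89 and MRPS24 -1.15 to 0.01, and for DMSO against untreated MRPS24 -0.19 to 0.98 in knockdown and -0.34 to 0.88 in control cells. In control cells they were MRPL52 -0.20 to 0.51, MRPL12 -0.81 to 1.28 and MRPL10 -0.09 to 0.10.

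With 3 libraries a group and a median SE of 0.27, small differences of a member could not be resolved, and MRPS24, MRPL12 and MRPL53 rest on few counts.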
